A study of Mus musculus with 12 samples.

Results

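The 28 genes described here encode the subunits that carry and shape electrical current in the heart: sodium, potassium, calcium and pacemaker channels, and 2 connexins of the gap junctions. They were chosen by gene symbol from 24061 listed symbols, with earlier results of these data known, and all 28 passed the filter on low counts, as did 14107 genes in all. RNA was measured in hearts of 12 chow-fed C57BL/6J males between 2 and 4 months of age, of which 6 were heterozygous for hexokinase II (HKII+/-) and 6 wild type (HKII+/+). Hexokinase II, the product of Hk2, phosphorylates glucose at the start of glycolysis and can sit on mitochondria. The labels name no Cre driver, tissue-specific allele or treatment. Libraries are named below by genotype and the number in their label. Potential outliers according to the submitters are HKII+/- replicate 11 and HKII+/+ replicate 13. Both are called marked here, and comparisons were made over all 12 libraries (6 per genotype) and over the 10 unmarked ones (5 per genotype).

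A cardiac action potential starts when sodium channels open, holds its plateau while L-type calcium channels admit the calcium that triggers contraction, and ends when voltage-gated potassium channels repolarise the membrane. Inward rectifiers then hold the resting potential, HCN channels carry the pacemaker current of nodal cells, and connexins pass the impulse from cell to cell. Chambers differ in this equipment. Atrial and nodal myocytes are known for the acetylcholine-activated rectifier formed by Kcnj3 and Kcnj5, for the low-threshold calcium channels Cacna1d and Cacna1g and, in the node, for Hcn4. Ventricular myocytes are known for the strong inward rectifiers Kcnj2 and Kcnj12 and for the fast transient outward current of Kcnd2 with its partner Kcnip2.

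RefSeq start sites on GRCm38.p6 gave 23 windows of 250 bases upstream for 19 of the 28 genes. Those of Kcnj3 (chr2:55435720-55435969, plus strand), Kcnj5 (chr9:32344345-32344594, minus), Hcn4 (chr9:58822699-58822948, plus) and Kcnip2 (chr19:45816064-45816313, minus) are shown. They are some of the genes with called slopes on the atrial markers, the first 3 upward and Kcnip2 downward. Of these, Hcn4 and Kcnip2 were called in only 4 of 10 fits that left out 1 heart. Cacna1c, Cacna1d and Scn4b also had windows and called slopes, but only the 4 windows above are printed. Each reads 5′ to 3′ on the gene's strand, in lower case, with matches to AGGTGT on either strand in capitals.
Kcnj3: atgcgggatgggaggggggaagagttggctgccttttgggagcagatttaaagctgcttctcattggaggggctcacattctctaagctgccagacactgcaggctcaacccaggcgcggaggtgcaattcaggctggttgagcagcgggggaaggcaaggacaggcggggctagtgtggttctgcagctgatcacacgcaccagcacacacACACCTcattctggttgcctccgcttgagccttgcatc
Kcnj5: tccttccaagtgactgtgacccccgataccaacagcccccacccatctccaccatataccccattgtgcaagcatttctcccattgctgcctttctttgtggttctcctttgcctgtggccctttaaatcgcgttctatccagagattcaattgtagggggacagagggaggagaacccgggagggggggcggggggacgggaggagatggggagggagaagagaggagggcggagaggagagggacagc
Hcn4: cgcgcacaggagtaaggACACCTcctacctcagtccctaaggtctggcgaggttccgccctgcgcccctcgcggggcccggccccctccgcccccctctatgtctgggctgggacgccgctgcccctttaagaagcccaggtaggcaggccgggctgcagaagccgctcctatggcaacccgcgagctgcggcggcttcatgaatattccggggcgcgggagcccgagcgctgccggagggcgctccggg
Kcnip2: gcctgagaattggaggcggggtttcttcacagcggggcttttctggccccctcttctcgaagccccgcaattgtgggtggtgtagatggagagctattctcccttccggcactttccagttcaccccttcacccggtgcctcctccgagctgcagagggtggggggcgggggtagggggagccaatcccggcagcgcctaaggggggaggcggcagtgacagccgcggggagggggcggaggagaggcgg
AGGTGT, the core bound by T-box factors, was present in 2 of the 23 windows, at position -38 from the start in Kcnj3 and at -233 in Hcn4, both as its reverse complement ACACCT. It is present in 11.8% of 32851 windows of the same length. The other motifs searched on both strands were TATAAA (1 window of the 23, against 12.4% of all), the GATA core AGATAA (1, against 9.99%), TNAAGTG of NKX2-5 (2, against 10.1%) and the Iroquois site ACATGT (0, against 4.58%). In the 4 windows shown no motif other than AGGTGT matched, and 17 of the 23 windows held none of the 5. The windows of Cacna1c, Cacna1d and Scn4b held no AGGTGT, and the 1 window with TATAAA was of Cacna1d. The windows differed in base composition, with 7 CG pairs each in those of Kcnj3 and Kcnj5, 15 in that of Kcnip2 and 25 in that of Hcn4.

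Counts per library summed to between 17263209 and 51556592. Hk2 checked the labels: it stood at 471 to 652.6 CPM (counts per 1000000 of the scaled library total) in HKII+/+ and 255.7 to 354 CPM in 5 HKII+/- libraries, while the library labelled HKII+/- replicate 11 stood at 568.2 CPM, against its label. The other marked library, HKII+/+ replicate 13, held the 652.6 CPM, against 471 to 542.5 in the unmarked HKII+/+ libraries. Many genes were shifted in both marked libraries (below), so Hk2 does not settle the label of replicate 11. Tissue was checked through marker lists. Ventricular markers (Myl2, Myl3, Irx4, Hey2) were all detected, at 8128 to 12304 CPM summed in the 10 unmarked libraries. The 7 atrial markers (Myl7, Myl4, Sln, Nppa, Bmp10, Dkk3, Mybphl) varied far more: they summed to 342.6 CPM in HKII+/- replicate 19 and 437 CPM in HKII+/- replicate 22, against 2548 to 7389 CPM in the other 8 unmarked libraries. Most of these 2 low sums was Nppa, at 267.8 and 430.9 CPM, so they do not rank the 2 hearts by the other markers. Myl7, for example, held 19.09 CPM in replicate 19 and 0.4692 in replicate 22, against 230.3 to 903.1 in the 8. Bmp10 was at 0 counts in HKII+/+ replicate 18. The atrial score used below is the mean log2 CPM of these 7 genes, none of them a channel. It was 0.32 in HKII+/- replicate 22, 3.39 in HKII+/- replicate 19 and 6.86 to 9.13 in the other 8. Hearts that hold fewer atrial cells and hearts whose atrial cells hold less of these RNAs cannot be told apart in whole-tissue RNA. In HKII+/- replicate 11 airway epithelium markers summed to 260.3 CPM, against 0.43 to 1.84 elsewhere. Fibroblast markers went both ways in both marked libraries, HKII+/- replicate 11 and HKII+/+ replicate 13. Col1a1 measured 3659 and 1113 CPM in them, against 144.1 to 258.3 in the unmarked libraries. Lower were Dcn (78.01 and 104.5 against 355.7 to 514.4), Lum (3.403 and 6.164 against 45.46 to 68.12) and Pdgfra (33.18 and 38.56 against 43.75 to 67.37). Tcf21 was higher only in replicate 11 (18.46, and 10.23 in replicate 13, against 5.556 to 10.94).

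Transcript levels spanned 650-fold across the 28 genes when CPM were divided by the exon length of each gene. The values that follow are means of the 10 unmarked libraries in CPM per kilobase ± SD. By this length potassium channels took the top 3 places. Kcnk3, a leak channel also called TASK-1, led with 88.4 ± 4.1. Kcnip2, the calcium-binding subunit of the transient outward channel, stood at 55.5 ± 7.2 and Kcnj11, the pore of the ATP-sensitive channel, at 51.4 ± 3.5. These last values overlap within their spread. Gja1, connexin 43 and the main ventricular gap junction protein, reached 43.4 ± 7.1. With the longest transcript as the length Gja1 ranked above the others at 115, against 92.3 for Kcnk3. In total 8 of the 28 genes lay above 20 and 3 lay below 1, namely Cacna1d (0.627), Scn3b (0.245) and Scn2b (0.136). Both sodium channel beta subunits rested on few reads, 10 to 31 counts per library for Scn2b and 7 to 68 for Scn3b.

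**Figure D1:**
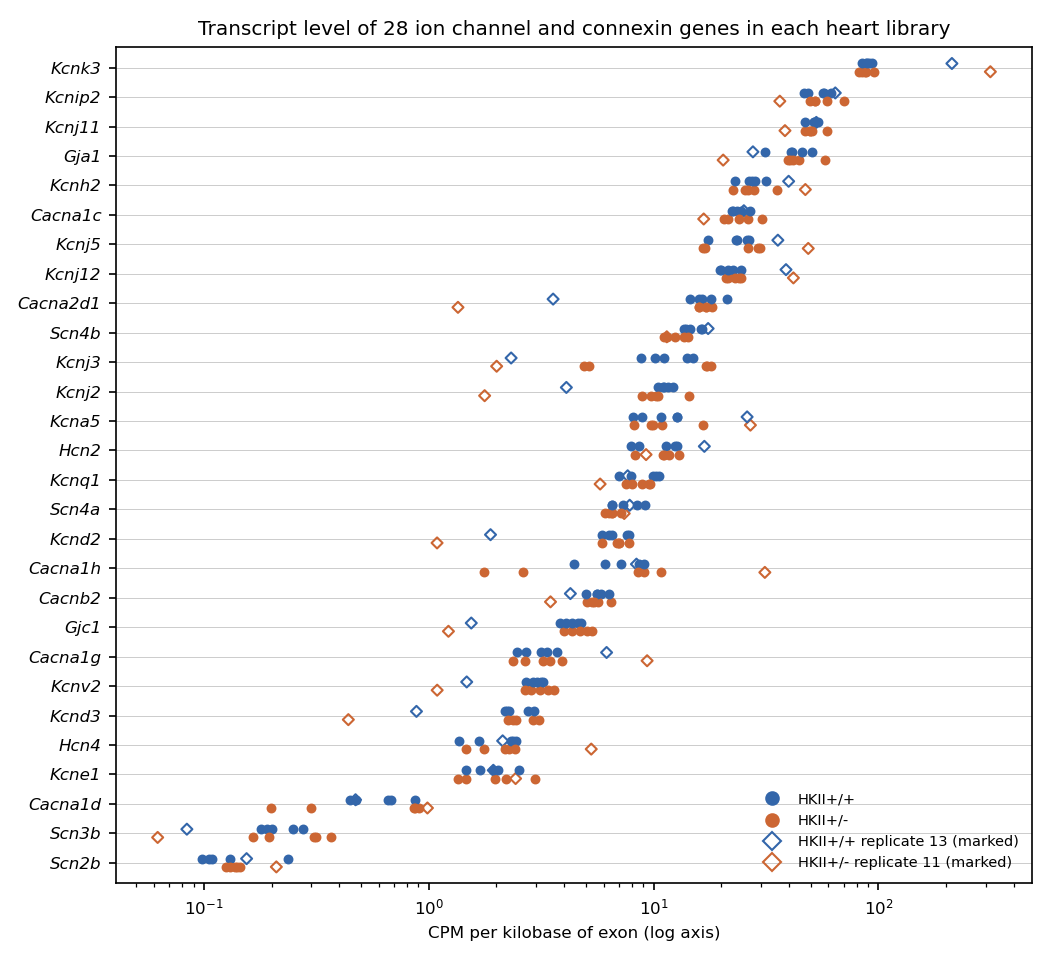
Level of each of the 28 genes in each of the 12 libraries, in CPM per kilobase of exon on a log axis, ordered by the mean of the 10 unmarked libraries. Filled circles are unmarked hearts (blue HKII+/+, orange HKII+/-) and open diamonds the 2 marked libraries, which lie far from the circles for genes such as Cacna2d1, Kcnd2 and Kcnk3, while the circles of both genotypes overlap in every row.

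Within 7 pairs of related genes, 1 pair changed its order among the unmarked hearts and 3 others kept it while their ratio shifted in HKII+/- replicates 19 and 22. Cacna1c, the main L-type pore of the working myocardium, exceeded Cacna1d, the L-type pore of node and atrium, 22.8 to 56.1 times per kilobase in the other 8 unmarked libraries, 87.8 times in HKII+/- replicate 19 and 152 times in HKII+/- replicate 22. Kcnj3 stood at 0.434 to 0.649 of Kcnj5 per kilobase in the 8, and at 0.296 and 0.304 in those 2 hearts. Of the T-type calcium channels, Cacna1g was at 0.32 to 0.612 of Cacna1h in the 8, and at 1.02 and 1.34 in replicates 19 and 22, where the order of the pair was inverted. Hcn2, the HCN channel of working muscle, exceeded Hcn4, the nodal one, 3.41 to 5.86 times in the 8 and 7.33 and 7.94 times in the 2. The ratios of the other 3 pairs stayed in or close to the range of the 8. Kcnd2, the pore of the fast transient outward current, was 2.13 to 3.43 times Kcnd3 per kilobase in the 8 and 3.03 and 2.49 times in the 2. Kcnj2 was 0.42 to 0.621 of Kcnj12 in the 8 and 0.629 and 0.396 in the 2, just outside on either side. Gja1 was 7.27 to 14.5 times Gjc1, connexin 45 of the conduction system, in the 8 and 7.56 and 7.87 times in the 2.

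Spread between hearts differed widely among these genes. The coefficient of variation over the 10 unmarked libraries had a median of 13.9% across the 28, against 9.88% across all genes tested. It ran from 4.7% for Kcnk3, 6.9% for Kcnj11 and 8% for Kcnj12 to 40.1% for Kcnj3, 41.3% for Cacna1d and 44.2% for Cacna1h, and was under 15% for 16 genes.

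Single hearts stood out for other genes without an atrial label. Among potassium channels Kcna5 ranged from 23.3 (HKII+/+ replicate 14) to 36.6 CPM in 9 of the unmarked hearts and reached 47.6 CPM in HKII+/- replicate 22, where Kcne1 was also highest, at 9.58 CPM against 4.33 to 8.12. Kcnj2 was highest in HKII+/- replicate 19, at 78.6 CPM against 48.2 to 66.6 in the other 9. Gja1 ran from 323 CPM in HKII+/+ replicate 21 to 594 CPM in HKII+/- replicate 12, with the other 8 unmarked hearts between 407 and 519. Hcn2 was low in HKII+/+ replicate 18 (25.5 CPM), HKII+/- replicate 20 (26.3) and HKII+/+ replicate 21 (27.5), and between 35.0 and 41.4 CPM in the other 7. The highest unmarked heart was HKII+/- for each of these 5 genes, replicate 19 or 22 for all but Gja1, while the lowest hearts fell in both genotypes. These genes are examples, and others of the 28 had their single high heart in HKII+/+. Cacna2d1 reached 264.2 CPM in HKII+/+ replicate 21, against 180.8 to 226.6 in the other unmarked hearts. Scn2b, on few counts, reached 1.103 CPM in HKII+/+ replicate 18, against 0.4554 to 0.6733. The 5 genes therefore show no pattern by genotype for the 28.

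The genotype comparison asks whether a lowered Hk2 dose goes with other channel transcripts. In its 12-library form the library labelled HKII+/- replicate 11, whose Hk2 lay inside the HKII+/+ range, counts as HKII+/-. None of the 28 genes passed an adjusted p of 0.05 in edgeR's quasi-likelihood test, with 12 libraries (0% of all genes tested were called) or with the 10 unmarked ones (0.00707%, 1 gene of 14139). DESeq2 also called 0 of them. At unadjusted p below 0.05 the edgeR count was 1 of 28 with 12 libraries, against 0.262% of all genes, and 2 of 28 with 10, against 2.80%. HKII+/- and HKII+/+ values overlapped for all 28, while all HKII+/- libraries lay below all HKII+/+ for 0.00709% of genes and above for 0.0142%. Estimates were above 0 for 17 genes and below 0 for 11 in both fits, and the median log2 fold change was 0.048 with 12 libraries and 0.024 with 10, against -0.001 and -0.005 over all genes. The 10 unmarked libraries bounded the differences more tightly: the 95% interval lay within 0.5 log2 units of 0 for 22 of 28 genes, and for 7 of 28 with 12 libraries. Differences of a size inside an interval were not excluded. The intervals are not adjusted for the number of genes tested. Those of Scn4b in both fits and of Scn4a with 10 libraries did not include 0.

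**Figure D2:**
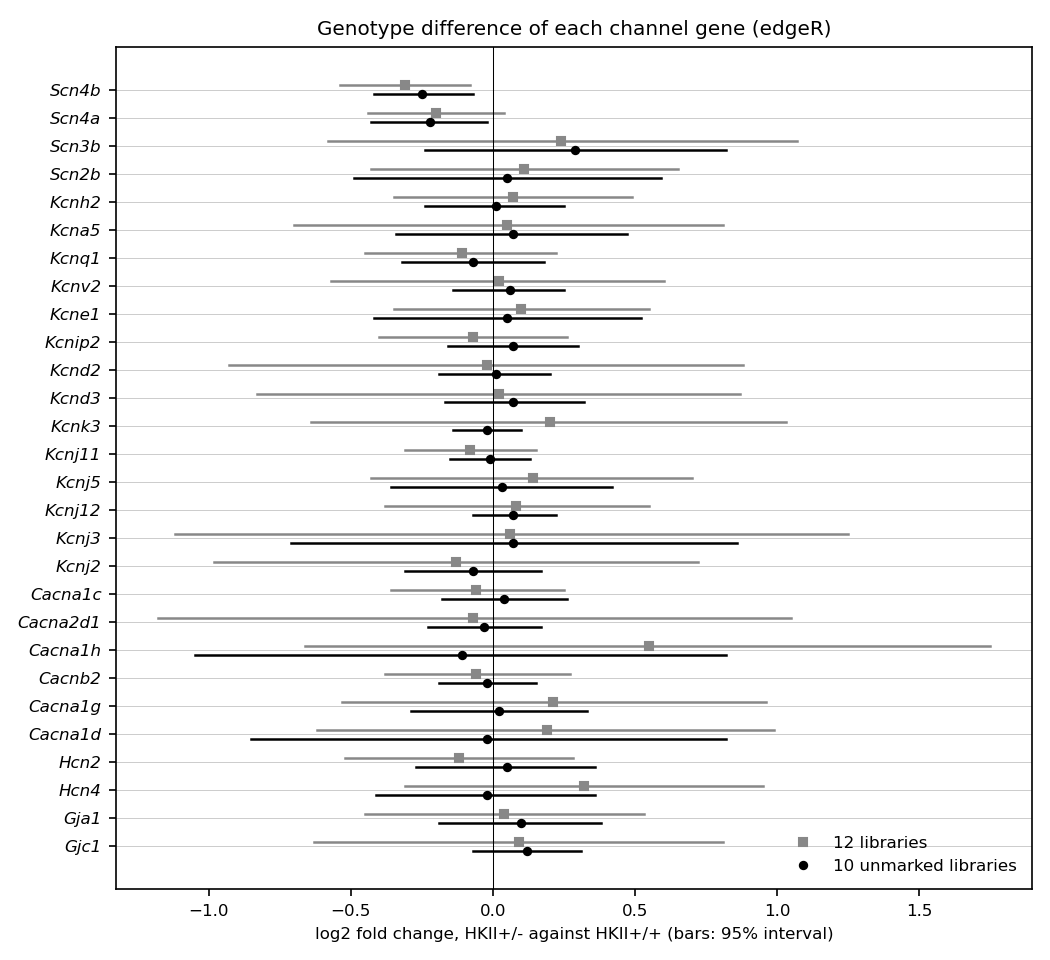
Log2 fold change of each gene, HKII+/- against HKII+/+, from edgeR with 95% intervals. Grey squares use 12 libraries and black circles the 10 unmarked ones; without the marked libraries 25 of the 28 intervals narrow, and the widest are then those of Cacna1h, Cacna1d and Kcnj3, while Scn4b lies below 0 in both.

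Among sodium channel subunits, Scn4b had the smallest p of the 28. It encodes the beta-4 subunit, which modifies the gating of the pore, and lies on the plus strand at chr9:45138395-45154152 of GRCm38, as annotated in GENCODE, beside Scn2b (chr9:45117782-45130070). Its level was 67.8 (replicate 15), 69.4 (14), 72.4 (17), 81.0 (18), 81.7 (21) and 87.2 (13) CPM in HKII+/+ hearts. In HKII+/- hearts it was 55.3 (20), 57.1 (11), 57.4 (12), 61.9 (16), 68.3 (19) and 70.8 (22) CPM. The groups overlapped only through HKII+/- replicates 19 and 22, the hearts with the lowest atrial scores. Scn4b did not pass the test. Its log2 fold change with 12 libraries came to -0.31 (SE 0.11, edgeR adjusted p = 1), with a 95% interval from -0.54 to -0.08, and -0.25 (SE 0.08, adjusted p = 1) with 10. With the atrial score as a covariate in the 10 libraries it was -0.32 (SE 0.06, edgeR adjusted p = 0.807). The estimate stayed below 0 in every alternative run.

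Scn4a, known as the sodium channel pore of skeletal muscle, measured 45.9, 46.1, 51.4, 59.7 and 64.7 CPM in the unmarked HKII+/+ and 42.9, 44.5, 45.8, 46.2 and 50.5 CPM in the unmarked HKII+/- hearts. The ranges overlapped, and the log2 fold change was -0.22 (SE 0.09, edgeR adjusted p = 1) with 10 libraries and -0.20 (SE 0.11) with 12. Fast skeletal muscle markers summed to only 0.606 to 3.95 CPM in these 10 hearts, and Myh4 was at 0 in most of them. Scn3b (log2 fold change 0.29, SE 0.24) and Scn2b (0.05, SE 0.25), both regulatory beta subunits, had 95% intervals of -0.24 to 0.82 and -0.49 to 0.59.

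Voltage-gated potassium channels differed little between genotypes in the 10 unmarked libraries. Kcnh2, the pore of the rapid delayed rectifier, averaged 132.8 ± 14.7 CPM (SD) in the 5 wild-type and 133.6 ± 23.8 CPM in the 5 heterozygous hearts. Kcnq1, the pore of the slow delayed rectifier, had a log2 fold change of -0.07 (95% interval -0.32 to 0.18) and its partner Kcne1 of 0.05 (-0.42 to 0.52). For the transient outward current, Kcnd2 was at 0.01 (-0.19 to 0.20), Kcnd3 at 0.07 (-0.17 to 0.32) and Kcnip2 at 0.07 (-0.16 to 0.30). Kcna5, the pore of the ultrarapid current, was at 0.07 (-0.34 to 0.47) and Kcnv2, a modifying subunit, at 0.06 (-0.14 to 0.25). None of these intervals excludes 0, and all lie within 0.52 log2 units of it.

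The narrowest intervals of the 28 were those of the leak channel Kcnk3 and the rectifiers Kcnj11 and Kcnj12. Kcnk3 averaged 354.2 ± 13.9 CPM (SD) in the 5 wild-type and 349.1 ± 20 CPM in the 5 heterozygous hearts, for a log2 fold change of -0.02 (95% interval -0.14 to 0.10). Kcnj11 gave -0.01 (-0.15 to 0.13) and Kcnj12 0.07 (-0.07 to 0.22). Kcnj2 gave -0.07 (-0.31 to 0.17) and Kcnj5 0.03 (-0.36 to 0.42). The interval of Kcnj3 ran from -0.71 to 0.86, and the HKII+/- group held both its highest and its lowest unmarked values.

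Calcium and pacemaker channels and connexins also overlapped between genotypes. Cacna1c averaged 506.8 ± 38.6 CPM (SD) in the 5 wild-type and 519.7 ± 83.3 CPM in the 5 heterozygous hearts, and its log2 fold change was 0.04 (95% interval -0.18 to 0.26). Its auxiliary subunits Cacnb2 (-0.02, -0.19 to 0.15) and Cacna2d1 (-0.03, -0.23 to 0.17), which help traffic the channel to the membrane, lay closer to 0. Cacna1h was at -0.11 (-1.05 to 0.82), and at 0.55 (SE 0.56) once the marked libraries were included, since HKII+/- replicate 11 held 305 CPM. Hcn2 was at 0.05 (-0.27 to 0.36), Hcn4 at -0.02 (-0.41 to 0.36), Gja1 at 0.10 (-0.19 to 0.38) and Gjc1 at 0.12 (-0.07 to 0.31).

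The second comparison sets atrial against ventricular subunits through the atrial score of each heart. The slope of log2 expression on the score, with genotype in the model, was called for 10 of the 28 genes in the 10 unmarked libraries (edgeR, adjusted p below 0.05), a share of 35.7% against 12.2% of all genes. Of these 7 rose with the score, against 7.68% of all genes, and 3 fell, against 4.47%. At unadjusted p below 0.05 were 17 of the 28, against 26.6% of all genes. The median slope was 0.021 log2 units per unit of score, against 0.001 over all genes. All 5 genes placed as atrial or nodal by textbook preference (Kcnj3, Kcnj5, Cacna1d, Cacna1g, Hcn4) rose. Of the 4 placed as ventricular, Kcnip2 fell and Kcnj2, Kcnj12 and Kcnd2 did not pass. The slope of Kcnd2 was upward, at 0.033 (SE 0.014, edgeR unadjusted p = 0.0411, adjusted p = 0.167), opposite to that of Kcnip2. Those of Kcnj2 (-0.022, SE 0.021) and Kcnj12 (-0.014, SE 0.012) were downward.

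The calls were lost without HKII+/- replicates 19 and 22. The scores of the remaining 8 libraries span only 6.86 to 9.13, and the fit called 0 of the 28 genes and 0 of all genes, with 9.63% of all genes at unadjusted p below 0.05. Slopes of the 10 genes kept their sign in these 8 libraries, and 6 of them were as large or larger. The 10 were called in a fit that includes these 8 libraries, so the kept signs are no separate support. The smallest slopes were within their SE, such as -0.008 (SE 0.063) for Cacna1c and -0.022 (SE 0.073) for Kcnip2. The number of the 28 called dropped to 4 without HKII+/- replicate 12 or 22 and to 6 without HKII+/- replicate 16, 19 or 20. With all 12 libraries it was 2, Cacna1d and Cacna1h, while 0.780% of all genes were called. Kcnj3, Kcnj5, Cacna1d and Cacna1h were called in each of the 10 fits that left out 1 unmarked library.

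Other markers moved in the same 2 hearts, which are both HKII+/-. Both lay above the other 8 for 3 of 4 ventricular markers and 4 of 7 general cardiomyocyte markers. Both lay below for 6 of 7 atrial, 3 of 6 smooth muscle and mural (Myh11, Tagln, Cnn1), 2 of 5 fibroblast (Pdgfra, Lum) and 2 of 5 brown fat markers (Ucp1, Cidea), and Ucp1 was at 0 counts in both. Summed smooth muscle markers were 515.4 and 486.7 CPM, against 512.8 to 838.2 in the 8. No endothelial or immune marker separated the 2 hearts. The part of these cell types in the slopes was not tested.

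Kcnj3, the GIRK1 subunit (chr2:55435970-55598145, plus strand of GRCm38), measured 46.1 (replicate 21), 53.1 (18), 58.2 (17), 73.4 (14) and 78.5 (15) CPM in the unmarked HKII+/+ hearts and 25.6 (19), 26.8 (22), 89.1 (16), 90.6 (12) and 93.7 (20) CPM in the HKII+/- hearts. Replicates 19 and 22 lay below the other 8 and the remaining 3 HKII+/- hearts above every HKII+/+ heart. Its slope was 0.232 (SE 0.025, edgeR adjusted p = 0.000204), and 0.323 (SE 0.069, adjusted p = 0.251) in the 8 libraries without those 2. Of its 5215 exon bases 1621 are shared with the antisense transcript Gm26794, and reads of the 2 cannot be told apart, as the strand setting of the counting is not given in the sources used here.

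Its partner Kcnj5, the GIRK4 subunit (chr9:32314707-32344350, minus strand), had a smaller slope. It stood at 77.9 and 79.2 CPM in HKII+/- replicates 19 and 22 and at 82.1 to 140 CPM in the other 8, so HKII+/+ replicate 21 at 82.1 came close to the 2. Its slope was 0.101 (SE 0.018, edgeR adjusted p = 0.00412).

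The steepest slopes belonged to calcium channels. Cacna1h, a T-type pore (chr17:25374285-25433783, minus strand), held 25.8 and 17.2 CPM in replicates 19 and 22 and 43.3 to 105 CPM in the other 8. Its slope was 0.291 (SE 0.029, edgeR adjusted p = 0.000128). Cacna1d (chr14:30039939-30491455, minus strand) held 3.78 and 2.52 CPM against 5.63 to 11.4 CPM, with a slope of 0.263 (SE 0.021, edgeR adjusted p = 5.03e-05). For both genes the 2 hearts lay clear of the rest. Cacna1g, the other T-type pore, overlapped: 27.3 and 24.1 CPM against 25.1 to 39.7, with a slope of 0.072 (SE 0.018, adjusted p = 0.0222). In all, 4 of the 28 genes (Kcnj3, Kcnj5, Cacna1d, Cacna1h) lay below the other 8 in both hearts, as did 8.40% of all genes, and 1 (Gjc1, 26.7 and 25.2 against 19.3 to 23.7 CPM) lay above, as did 7.99%.

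Hcn4 did not separate the 2 hearts. It was lowest in HKII+/+ replicate 18 at 8.33 CPM, followed by 8.99 in HKII+/- replicate 22, 10.2 in HKII+/+ replicate 21 and 10.8 in HKII+/- replicate 19, and ranged from 13.3 to 14.9 CPM in the others. HKII+/+ replicates 18 and 21 also had the lowest atrial scores of the other 8, at 6.86 and 7.52. The score of replicate 18 includes Bmp10 at 0 counts, and its summed atrial markers, at 4390 CPM, exceeded those of HKII+/+ replicates 17 (3420) and 21 (2548). Its slope was 0.085 (SE 0.023, edgeR adjusted p = 0.0365), and 0.390 (SE 0.086, adjusted p = 0.251) in the 8 libraries. Scn3b rose as well, with a slope of 0.117 (SE 0.031, adjusted p = 0.0303), on few counts.

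The 3 genes that fell with the score did so by small steps. Cacna1c held 557 and 643 CPM in replicates 19 and 22 and 437 to 567 CPM in the other 8, a slope of -0.050 (SE 0.011, edgeR adjusted p = 0.0163). Kcnip2 held 206 and 246 CPM against 162 to 213, a slope of -0.048 (SE 0.014, adjusted p = 0.0418). Scn4b held 68.3 and 70.8 CPM against 55.3 to 81.7, a slope of -0.039 (SE 0.011, adjusted p = 0.0349). In each case replicate 19 lay inside the range of the other 8, and for Scn4b replicate 22 did too. Of the 10 fits that left out 1 library, Cacna1c was called in 7, Scn4b in 5 and Kcnip2 in 4.

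**Figure D3:**
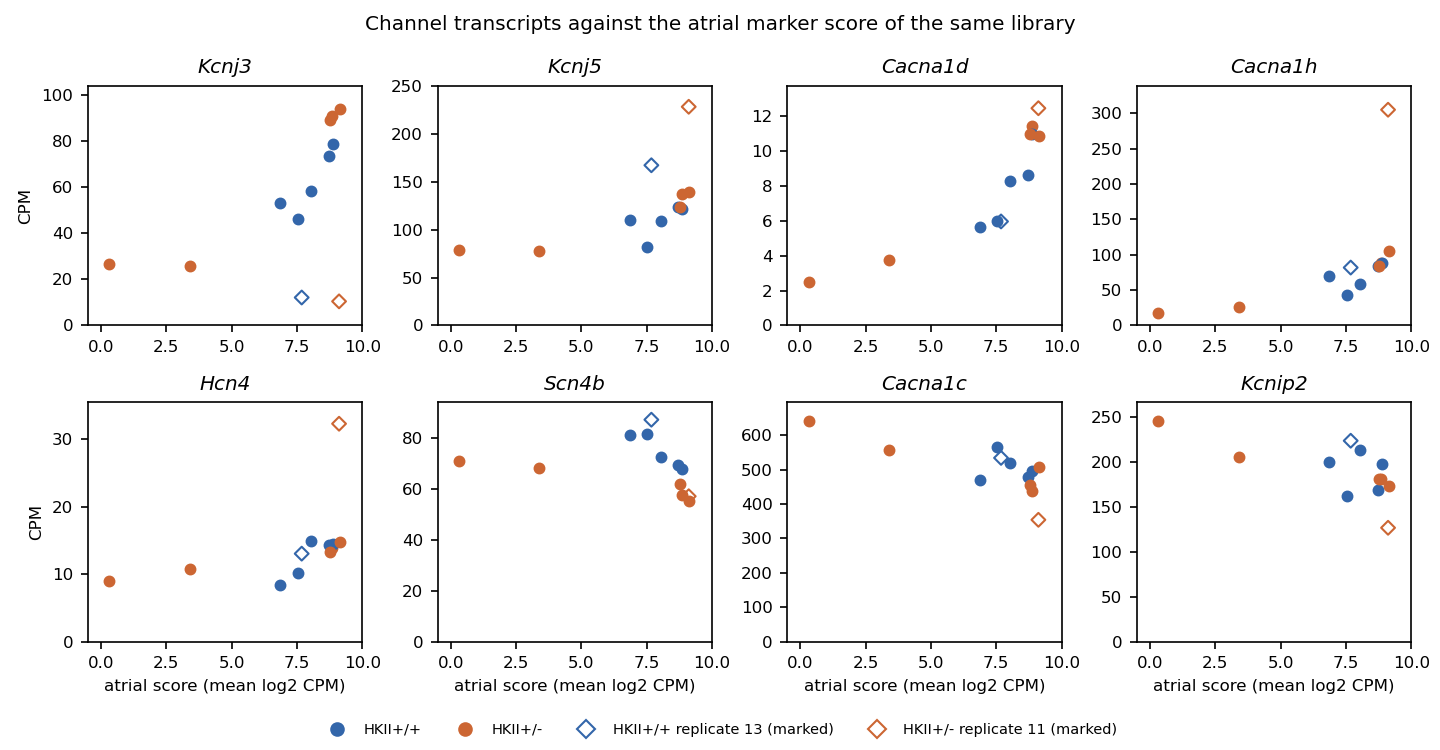
CPM of 8 of the genes in each library (vertical axis, from 0) against the atrial score of the same library, the mean log2 CPM of 7 atrial markers (horizontal axis). Filled circles are the 10 unmarked hearts and open diamonds the 2 marked ones; the points at scores 0.32 and 3.39 are HKII+/- replicates 22 and 19, which are low for Kcnj3, Kcnj5, Cacna1d and Cacna1h, inside the range of other hearts for Hcn4, and not low for Scn4b, Cacna1c and Kcnip2.

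Of 78 further channel, junction and channel regulator genes, 68 could be tested. None passed between genotypes in either fit, and none had an unadjusted p below 0.05. Nearest with 10 libraries was Kcnk6, a leak channel, at 0.23 (SE 0.12), followed by Kcnmb1, a subunit of the calcium-activated channel of smooth muscle (-0.33, SE 0.20), and Kcna4 (0.29, SE 0.18). With 12 libraries they were Gjd3, a connexin (1.35, SE 0.72), Kcnk6 (0.23, SE 0.21) and Kcnab2 (0.23, SE 0.24). The value of Gjd3 was 0.24 without the marked libraries, as HKII+/- replicate 11 held 2.47 CPM and the other 11 libraries 0.055 to 0.656. On the atrial score 17 of the 68 were called (25.0%, against 12.2% of all genes), 12 upward and 5 downward. Cacna2d2, a calcium channel auxiliary subunit, had a slope of 0.480 (SE 0.050). Fgf12, an intracellular regulator of sodium channels, held 0.727 and 0.254 CPM in the 2 hearts against 12.0 to 36.7 CPM (slope 0.761, SE 0.090). Its relative Fgf13 fell, at -0.032 (SE 0.009), as did Cacna1s, the L-type pore of skeletal muscle, at -0.082 (SE 0.012).

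The 2 marked libraries stood apart from the 10 others in many of the 28 genes. Both lay below all 10 for 10 genes (Gja1, Cacna2d1, Kcnj3, Kcnj2, Kcnd2, Cacnb2, Gjc1, Kcnv2, Kcnd3, Scn3b), as for 38.0% of all genes, and both lay above for 6 (Kcnk3, Kcnh2, Kcnj5, Kcnj12, Kcna5, Cacna1g), as for 32.1%. Cacna2d1 measured 16.8 CPM in HKII+/- replicate 11 and 44.4 CPM in HKII+/+ replicate 13, against 181 to 264 CPM in the unmarked hearts. Kcnk3 measured 1252 and 844 CPM against 327 to 381 CPM. Subunits of 1 channel parted: Kcnj3 was at 0.0411 and 0.0651 of Kcnj5 per kilobase, and Kcnj2 at 0.0423 and 0.105 of Kcnj12. Kcnd2 to Kcnd3, at 2.48 and 2.13, kept the ratio of the other hearts.

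Base composition moved with these shifts. Across the 28 genes the log2 ratio to the unmarked median correlated with the GC content of the longest transcript at r = 0.72 (rho = 0.75) in HKII+/- replicate 11 and r = 0.74 (rho = 0.76) in HKII+/+ replicate 13, and across 13472 genes at r = 0.62 and 0.63. In the unmarked libraries r lay between -0.28 and 0.19. Genes are not independent replicates, and the values of 1 library share its depth and preparation. Of the 11 genes below 50% GC, 10 were lower in HKII+/- replicate 11 and 11 in HKII+/+ replicate 13, with medians of -1.87 and -1.43. Of the 17 at or above 50%, 11 and 14 were higher, with medians of 0.69 and 0.26. The part of GC in these differences was not tested, and neither was that of the airway markers in replicate 11.

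**Figure D4:**
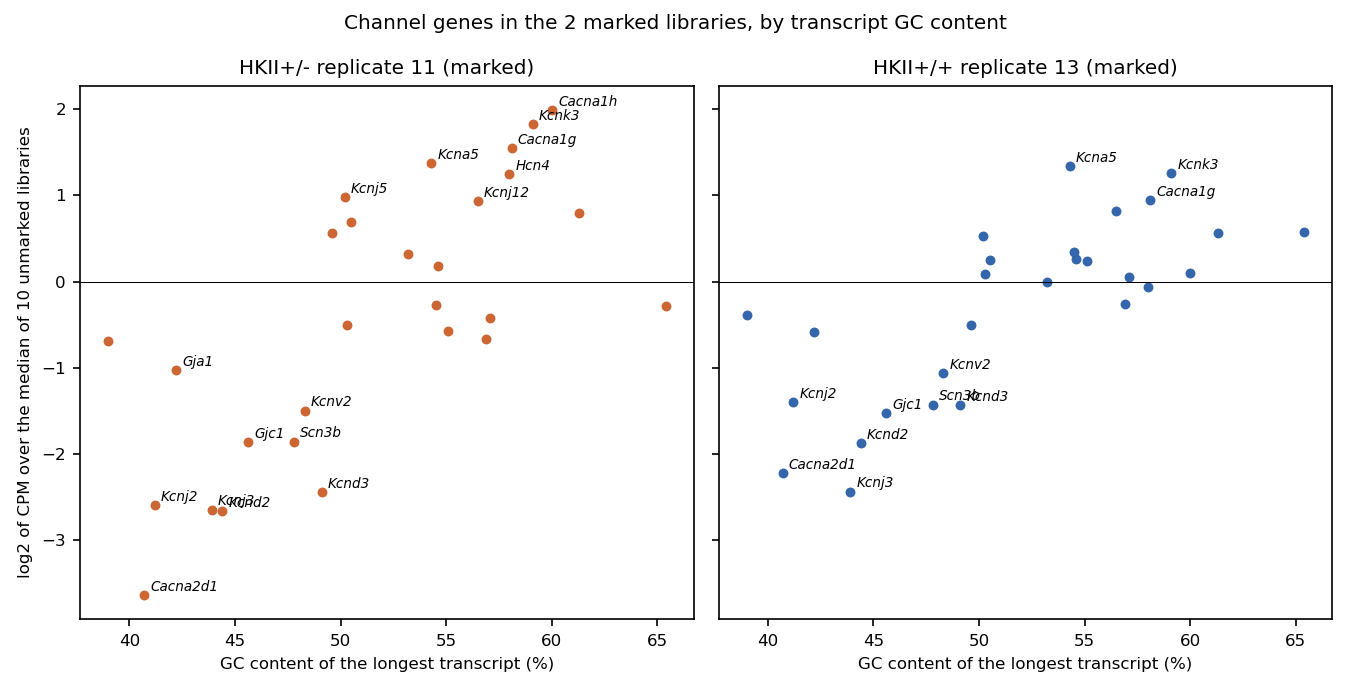
Log2 ratio of each of the 28 genes to the median of the 10 unmarked libraries, in the 2 marked libraries, against the GC content of its longest transcript in percent. Each point is 1 gene and those beyond 0.85 log2 units are named; genes of low GC such as Cacna2d1 (40.7%) lie mostly below 0 and genes of high GC such as Kcnk3 (59.1%) mostly above, with exceptions such as Hcn2 (65.4%, at -0.28 in HKII+/- replicate 11).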

How the data were processed

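Polyadenylated RNA of 12 hearts was sequenced as single-end reads, per the labels' protocols. What the authors deposited is 1 table of raw counts per library, by gene symbol. The submitters' processing notes name STAR 2.4.0, featureCounts 1.4.4 and the builds mm10 and GRCm38, which are 1 assembly. The sources used here do not give the strand setting or the annotation release, so reads of antisense partners cannot be told apart. Libraries are treated as separate animals from their separate titles, and otherwise the p-values would measure only the spread between these samples. No pair of replicates agreed within sampling noise (lowest chi-square per degree of freedom 7.03).

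Genotypes came from the sample titles. Tests used edgeR 4.0.16 (glmQLFit, glmQLFTest, TMM, filterByExpr with a minimum count of 10) in R 4.3.3 on the whole table, with Benjamini-Hochberg adjustment over all genes tested at 0.05. The genotype fit used 12 libraries and no covariate, and the atrial slope the 10 unmarked libraries with genotype as a covariate. Intervals are 95%. CPM are counts over the TMM-scaled library total, and log2 CPM use a prior count of 2. Exon lengths, coordinates and GC content came from GENCODE vM21 on GRCm38. GC content was available for 95.5% of tested genes, and ratios over all genes used a pseudocount of 0.1 CPM. Depth was 17263209 to 51556592 counts per library, and p-values and intervals reflect the spread between these hearts. The fits were first run on simulated counts with known changes, where only the return of those changes without large bias was required. The simulated counts lack the library-wide shifts of the marked libraries, so they are no check of the calls.

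Alternatives were other scalings, no filter, DESeq2 1.42.0, limma 3.58.1 voom with quality weights, the atrial covariate, other forms of the score and leaving out libraries. DESeq2 without the marked libraries and a linear score were added after seeing the data. The genes named are the 28 and, from 78 related genes, the 3 with the smallest p in each genotype fit and in each direction of the slope. Of the genes this rule names, 2 are not reported here. The 28 genes and all lists were chosen with earlier results of these data known.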

Additional observations from a re-analysis of the deposited data

Results flagged for a closer look

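For each of the 28 genes and each genotype of 6 libraries, the highest and the lowest library were compared with their nearest neighbour by Dixon's criterion. Of 56 groups, 21 values in 14 genes stood far from the rest, and 20 of the 21 belong to the 2 marked libraries. Chance gives about 1 group in 20 for independent groups, but the same libraries recur in all of these. The share over all genes by this criterion is not given here. Both marked libraries lay below the 10 unmarked ones for 38.0% of all genes and above for 32.1%, so the count is no trait of the 28. In HKII+/- replicate 11 the values far below the other HKII+/- hearts were Cacna2d1 at 16.76 CPM, Kcnd2 at 5.614, Kcnd3 at 4.211, Kcnv2 at 5.572 and Gjc1 at 6.125. Those far above were Kcnk3 at 1252 CPM, Cacna1h at 305.3, Kcnj12 at 115.2, Cacna1g at 94.93, Hcn4 at 32.33 and Scn2b at 0.9783. In HKII+/+ replicate 13 the low values were Kcnj2 at 22.3 CPM, Kcnd2 at 9.705, Kcnd3 at 8.459, Gjc1 at 7.738 and Kcnv2 at 7.541. The high ones were Kcnk3 at 844.4 CPM, Kcnj12 at 106.8, Kcna5 at 74.63 and Cacna1g at 62.69. The remaining value is Kcnj11 in HKII+/+ replicate 21, the lowest of its group at 174 CPM, against 190.5 to 198.9 CPM in the other HKII+/+ hearts.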

How the results depend on the processing

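No paired analysis was possible because the replicate numbers of the labels do not recur between the genotypes. Between genotypes 0 of the 28 genes were called under every alternative run. Over all genes the count of 0 became 1 without the 2 marked libraries, 2 with limma voom and sample quality weights, 1 with the atrial covariate without the marked libraries and 3 with DESeq2 without them, and ran from 0 to 2 when libraries were left out in turn, alone or with the marked ones. The direction of uncalled log2 fold changes was less steady. Without the marked libraries 8 genes changed sign: Kcnd2 0.009, Kcnip2 0.068, Kcnk3 -0.020, Cacna1c 0.037, Cacna1d -0.017, Cacna1h -0.112, Hcn2 0.049 and Hcn4 -0.022. With DESeq2 without them 7 genes changed sign: Kcnd2 0.009, Kcnip2 0.069, Kcnk3 -0.018, Cacna1c 0.038, Cacna1h -0.108, Hcn2 0.053 and Hcn4 -0.016. With quality weights 8 genes changed sign: Kcne1 -0.118, Kcnd2 0.010, Kcnk3 -0.056, Cacna1d -0.070, Cacna1g -0.006, Cacna1h -0.095, Cacna2d1 0.027 and Hcn4 -0.038. With the atrial covariate 2 genes changed sign: Kcne1 -0.021 and Gjc1 -0.028. With the covariate and without the marked libraries 6 genes changed sign: Kcnq1 0.004, Kcne1 -0.196, Kcna5 -0.073, Kcnd2 0.069, Kcnk3 -0.036 and Cacnb2 0.025. Leaving out libraries turned the sign of 24 genes, whose log2 fold changes then ranged as follows: Scn2b -0.039 to 0.315, Kcne1 -0.160 to 0.196, Kcnh2 -0.099 to 0.188, Kcna5 -0.256 to 0.384, Kcnv2 -0.100 to 0.184, Kcnd2 -0.198 to 0.199, Kcnd3 -0.134 to 0.238, Kcnip2 -0.161 to 0.116, Kcnj2 -0.298 to 0.093, Kcnj12 -0.107 to 0.280, Kcnj3 -0.143 to 0.288, Kcnj5 -0.097 to 0.277, Kcnj11 -0.134 to 0.018, Kcnk3 -0.325 to 0.519, Cacna1c -0.144 to 0.090, Cacna1d -0.207 to 0.393, Cacna1g -0.201 to 0.457, Cacna1h -0.363 to 0.791, Cacnb2 -0.126 to 0.041, Cacna2d1 -0.265 to 0.177, Hcn2 -0.208 to 0.135, Hcn4 -0.132 to 0.453, Gja1 -0.086 to 0.183 and Gjc1 -0.062 to 0.283. For the atrial slope, the 1718 calls over all genes and 10 among the 28 became 110 and 2 with all 12 libraries and 0 and 0 without HKII+/- replicates 19 and 22, and ranged from 394 to 2231 and from 4 to 11 when 1 library was left out. The low end over all genes came without HKII+/- replicate 22, and counts moved by over 1.5 times also without HKII+/- replicate 12 (1110 over all genes), 16 (1065) or 19 (1068). Other scalings, no filter, DESeq2, a score without Nppa, a linear score and no genotype term gave 1417 to 2203 calls over all genes and 7 to 12 among the 28. With all 12 libraries the slopes that changed sign were Kcnd2 -0.010, Kcnd3 -0.010, Kcnj12 0.021, Kcnk3 0.081 and Cacna2d1 -0.030. With library totals they were Kcnj12 0.000 and Kcnk3 0.006. With no genotype term the slope of Scn2b was -0.002. Without HKII+/- replicates 19 and 22 the slopes of other sign were Scn2b -0.382, Kcne1 0.189, Kcnv2 -0.028, Kcnd3 -0.053, Kcnj2 0.015, Kcnj12 0.031, Kcnj11 0.010, Kcnk3 0.011, Cacna2d1 -0.025 and Hcn2 0.266. Leaving out 1 library turned the sign of 5 uncalled slopes, which ranged as follows: Scn2b -0.020 to 0.019, Scn4a -0.009 to 0.016, Kcna5 -0.089 to 0.022, Kcnj2 -0.087 to 0.003 and Kcnk3 -0.014 to 0.014. The cause of these changes was not tested. Levels per length of 12 of the 28 genes moved beyond 1 SD when the longest transcript set the length. Scn2b and Scn3b have the lowest depth of the 28, with 7 to 68 counts per library. The slope cannot be told apart from other properties of HKII+/- replicates 19 and 22, which share a genotype.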
